A study of Homo sapiens with 26 samples.

Results

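Baseline expression was compared between 4 multiple myeloma (MM) cell lines resistant to cyclophosphamide (C) and 4 MM cell lines sensitive to it, 8 of the 26 lines of the series. The resistant lines were KMS-12-BM, RPMI-8226, U-266 and AMO-1, and the sensitive lines were KMM-1, MM1S, MOLP-8 and OPM-2. They were chosen by the response class given for C in the sample labels, and all probe-sets were used. The series holds 14 lines of diffuse large B-cell lymphoma (DLBCL) and 12 of MM, among which AMO-1, a plasmacytoma line, was counted. All lines were drug naïve and were harvested during exponential growth, and each was measured once on an Affymetrix HG-U133 Plus 2.0 array, so that a cell line is the replicate and n is 4 in each class. No technical replicates were analysed, and p-values measure the spread between single cultures of different lines. A class of 4 lines is a small sample of a disease in which every line carries its own genetic lesions. The lines of both classes were grown in RPMI medium with either 10% or 20% serum (20% for KMS-12-BM, AMO-1 and MOLP-8). The MM lines of intermediate response (LP-1, KMS-12-PE, KMS-11 and NCI-H929) were left out of the classes and are given beside them. Of these LP-1 was grown in IMDM medium and the others in RPMI, with 20% serum for KMS-12-PE and NCI-H929 and 10% otherwise. The DLBCL lines set beside the MM lines were the resistant DB, FARAGE, RIVA and U2932 and the sensitive NU-DHL-1, NU-DUL-1, OCI-Ly19 and SU-DHL-5. They were grown in RPMI with 20% serum for DB and SU-DHL-5, an amount between 10% and 20% for NU-DUL-1, and 10% otherwise.

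Cyclophosphamide is an oxazaphosphorine alkylating agent that liver cytochromes convert to its active form, and mafosfamide, which releases that form without the liver, stood in for it in the dose response experiments. The active metabolite is detoxified by aldehyde dehydrogenases or splits into phosphoramide mustard, which crosslinks DNA, and glutathione conjugation, repair of crosslinks and the threshold for apoptosis are the classical determinants of response to it. Myeloma is a malignancy of plasma cells, the antibody secreting end stage of B-cell differentiation, in which recurrent translocations place cyclin D, MAF or FGFR3 and NSD2 genes under immunoglobulin enhancers.

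The response was given as AUC0, an area measured below the dose response curve where growth is above 0, for which a high value denotes resistance. For C the AUC0 was 328 in KMS-12-BM, 350 in RPMI-8226, 376 in U-266 and 395 in AMO-1. Among the sensitive lines it was 242 in MM1S, 249 in MOLP-8, 295 in KMM-1 and 303 in OPM-2. The classes are tertiles of these values within MM, so their means of 362 ± 29.4 (SD, n = 4) and 272 ± 31.2 are a description with no test. The intermediate lines lay in the narrow span between 308 (LP-1) and 322 (NCI-H929). The 95% confidence intervals met at both borders: that of OPM-2 (294 to 306) overlapped that of LP-1 (303 to 311), and that of KMS-12-BM (319 to 332) overlapped that of NCI-H929 (306 to 327). MM1S and MOLP-8 stood apart from the other sensitive lines, with intervals that ended at 244 and 256.

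**Figure D1:**
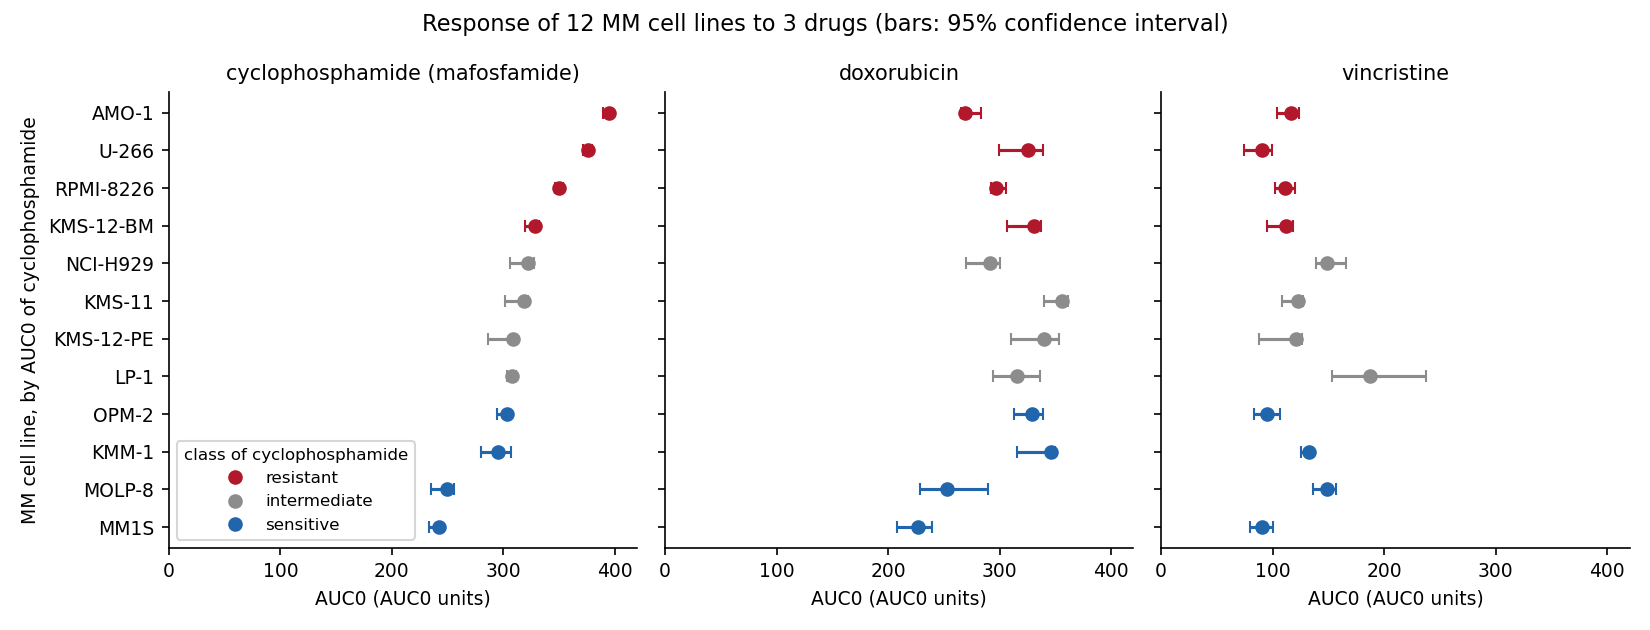
AUC0 in AUC0 units (x axis) of 12 MM lines (y axis, ordered by AUC0 of C) for cyclophosphamide, doxorubicin and vincristine, with bars for the 95% confidence interval and colours for the class of C. For C the resistant lines lie between 328 and 395 and the sensitive lines between 242 and 303, whereas for the other drugs the classes overlap.

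The classes of C did not divide the lines by their response to the other drugs of the screen. For doxorubicin (H) the AUC0 was 331 in KMS-12-BM, 297 in RPMI-8226, 325 in U-266 and 269 in AMO-1, against 227 in MM1S, 253 in MOLP-8, 346 in KMM-1 and 329 in OPM-2. AMO-1, the line most resistant to C, was in the sensitive class of H, and KMM-1, sensitive to C, was in the resistant class of H. The difference between the classes was 16.8 (means 306 ± 28.5 and 289 ± 57.7, SD, n = 4), with a two-sided exact permutation p of 0.657 over all 70 splits. For vincristine (O) the means were 107 ± 11.7 and 117 ± 28.8, a difference of −9.5 with an exact permutation p of 0.6. After adjustment over both drugs the p-values were 0.657, and the smallest p this design allows is 0.0286. The difference for H turned to −3.83 without MM1S, and that for O to 1.25 without MOLP-8.

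Across the transcriptome the sensitive lines were somewhat more alike than lines of different classes, and the resistant lines were not. Correlations over probe-sets were 0.907 to 0.936 between resistant lines (median 0.914 of 6 pairs), 0.918 to 0.940 between sensitive lines (median 0.931 of 6 pairs), and 0.906 to 0.942 between lines of different classes (median 0.923 of 16 pairs), which share array type and normalisation and are given as a description. None of 54613 probe-sets passed at a limma adjusted p under 0.05 (0% called), and the smallest adjusted p was 0.0810. At an unadjusted p under 0.05 there were 2253 probe-sets, of which 1110 were higher in resistant lines (2.03% of those tested) and 1143 lower (2.09%). The classes did not overlap for 692 probe-sets that were higher in resistant lines (1.27%) and for 768 that were lower (1.41%). With no difference between the classes a fraction of 0.05 is expected at an unadjusted p under 0.05, and the count did not exceed it. For classes that do not overlap 1 in 70 splits is expected in each direction, and these shares did not exceed it. The other estimates of the variance, with a trend or robust, gave 0 calls as well, with 2330 and 2175 probe-sets at an unadjusted p under 0.05. With dim probe-sets left out that of S100A4 passed, at an adjusted p of 0.0478. With all probe-sets 2 passed without RPMI-8226 (GUCY1A1 and APP), 1 without MOLP-8 (of no gene symbol) and 1 without OPM-2 (RAI14), and none without any of the other 5 lines. The genes described next are therefore those of the largest difference among probe-sets with non-overlapping classes and an unadjusted limma p under 0.01, a rule that 140 genes met with higher and 132 with lower expression in resistant lines, and 15 in each direction are named. They were drawn from 19775 genes with a probe-set of their own, and a gene could meet the rule by any of its probe-sets. Choosing the largest differences tends to overstate them. Their values are on the log2 scale of RMA, on which the medians of the 8 arrays lay between 5.65 and 5.71, and a difference is resistant minus sensitive. The deposited values carry no detection call, so that differences among the lowest values are not told from background.

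The largest difference was that of S100A4, a small calcium binding protein linked to cell motility. It was expressed at 12.98 in KMS-12-BM, 13.91 in RPMI-8226, 11.58 in U-266 and 12.37 in AMO-1, and at 5.35 in MM1S, 6.94 in MOLP-8, 5.70 in KMM-1 and 5.28 in OPM-2. All resistant lines were thus near the upper end of the array's range and all sensitive lines near or below the middle of it. The difference was 6.89 (SE 0.56), a 119-fold difference, with a limma adjusted p of 0.0810. It stayed between 6.49 (without RPMI-8226) and 7.27 (without U-266) when each line was left out. The intermediate lines fell on both sides, with 12.58 in NCI-H929 and 8.98 in KMS-11 but 5.53 in LP-1 and 5.55 in KMS-12-PE.

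S100A6, a second member of the family that is encoded close by, was expressed at 11.24 in KMS-12-BM, 12.46 in RPMI-8226, 7.33 in U-266 and 11.96 in AMO-1, against 7.24 in MM1S, 6.45 in MOLP-8, 5.07 in KMM-1 and 5.08 in OPM-2. U-266 stood at the level of MM1S, so the classes were separated by a margin that a single line decided. The difference was 4.78 (SE 1.14, limma adjusted p 0.999). Among 20 S100 genes with a probe-set of their own, 16 of them on chromosome 1, the classes were separated for these 2 alone. The rule by which these 2 were named had required that separation. Over all genes the classes were apart for 1.47% higher and 1.21% lower. S100A10, the annexin A2 partner, had a difference of 2.86 (SE 1.20) and S100A11 one of −2.94 (SE 1.46), both with overlapping classes, and S100A8 one of −1.61. The other 15 had differences between −0.21 and 0.57. These S100 genes beyond the rule were looked at after the values of S100A4 and S100A6 had been seen.

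S100A6 and S100A4 lie on the minus strand of chromosome 1 with 1 protein-coding gene, S100A5, between them (GRCh38.p14, chr1:153534599-153535991 and chr1:153543621-153545806). S100A5 itself had a difference of 0.23 (SE 0.20). The 250 bases before their RefSeq starts are shown, since these 2 genes, both named for classes that do not overlap, are close neighbours, and capitals mark CG dinucleotides. That of S100A4 spans chr1:153545807-153546056 and that of S100A6 chr1:153535992-153536241.
S100A4: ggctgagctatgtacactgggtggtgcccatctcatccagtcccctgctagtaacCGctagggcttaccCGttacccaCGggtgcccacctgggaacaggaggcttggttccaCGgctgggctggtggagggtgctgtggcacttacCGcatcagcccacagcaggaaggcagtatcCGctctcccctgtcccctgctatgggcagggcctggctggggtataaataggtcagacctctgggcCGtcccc
S100A6: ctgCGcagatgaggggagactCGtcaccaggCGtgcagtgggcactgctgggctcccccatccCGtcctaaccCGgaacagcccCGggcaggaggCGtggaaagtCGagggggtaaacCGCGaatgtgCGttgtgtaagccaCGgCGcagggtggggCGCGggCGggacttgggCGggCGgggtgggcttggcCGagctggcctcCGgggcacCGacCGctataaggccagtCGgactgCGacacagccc
The stretch before S100A4 held 7 CG dinucleotides, a number that 58.9% of 35116 RefSeq promoters of the same length reach, and that before S100A6 held 24, which 23.7% reach. The letters TATAAA, looked for on both strands, were found on the strand shown before S100A4 and not before S100A6. Of all promoters 10.7% held them on one strand or the other. Methylation was not measured.

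The other 13 leading genes with higher expression in resistant lines were of mixed function. AIM2, a cytosolic DNA sensor of the inflammasome, ranged from 9.16 to 10.34 in the resistant lines and was 8.75 in MM1S but 4.16 to 5.34 in the other sensitive lines (difference 4.18, SE 0.98). SERPINE2, a secreted protease inhibitor, showed the same arrangement, with 9.73 to 11.14 in resistant lines, 9.65 in MM1S and 3.98 to 6.98 in the others (difference 4.06, SE 1.11). MM1S was therefore the sensitive line closest to the resistant class for both genes.

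ETFB, the beta subunit of the electron transfer flavoprotein of mitochondrial fatty acid oxidation, was at a similar level within each class. It was 9.20 in KMS-12-BM, 10.70 in RPMI-8226, 9.86 in U-266 and 10.16 in AMO-1, and 6.43 in MM1S, 5.96 in MOLP-8, 6.54 in KMM-1 and 7.20 in OPM-2. The difference was 3.45 (SE 0.37, limma adjusted p 0.205). Of the intermediate lines, KMS-11 was at the sensitive level with 6.51, and the other 3 lay between 9.55 and 10.03.

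IFITM1, an interferon-induced membrane protein that restricts viral entry, was 10.41, 10.32, 9.5 and 8.51 in KMS-12-BM, RPMI-8226, U-266 and AMO-1, and 6.39, 8.17, 6.44 and 6.95 in MM1S, MOLP-8, KMM-1 and OPM-2 (difference 2.70, SE 0.54). FBXL16, an F-box protein, had a difference of 3.32 (SE 0.73), and the synaptic vesicle protein SYNGR3 one of 3.08 (SE 0.66). The zinc finger genes ZNF320 and ZNF83 had differences of 2.92 (SE 0.50) and 2.74 (SE 0.48). The remaining differences were 3.24 for LRP11, 2.54 for PRR5, a subunit of mTOR complex 2, 2.29 for HSD17B6, a steroid dehydrogenase, 2.24 for PRXL2B, a prostamide and prostaglandin synthase, and 2.21 for FAM83H. For LRP11 and FAM83H it was KMS-12-BM that stood highest, at 10.32 and 9.19. The other probe-sets had the same sign for the 8 of these 15 genes that had more than 1, but often a far smaller difference, at 0.11 for S100A6, 0.26 for SERPINE2, 0.39 for FBXL16, 0.88 for ZNF320, 1.57 for ZNF83 and 0.093 for FAM83H.

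The smallest p-values did not all belong to the largest differences. ATP2B4, a plasma membrane calcium pump named here after its values were seen, had the smallest adjusted p beside S100A4, 0.0810 by limma, with a difference of 1.61 (SE 0.13). It was 8.79, 9.08, 8.62 and 8.75 in KMS-12-BM, RPMI-8226, U-266 and AMO-1, and 7.27, 7.21, 7.34 and 7.0 in MM1S, MOLP-8, KMM-1 and OPM-2. The spread within both classes was small, with SDs of 0.19 and 0.15, and the intermediate lines lay between 6.90 and 7.68, below all resistant lines. RIPK2, the kinase that carries NOD signals to NF-κB and also named after its values were seen, was 8.70 to 9.47 in resistant and 7.14 to 8.10 in sensitive lines (difference 1.52, SE 0.25).

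**Figure D2:**
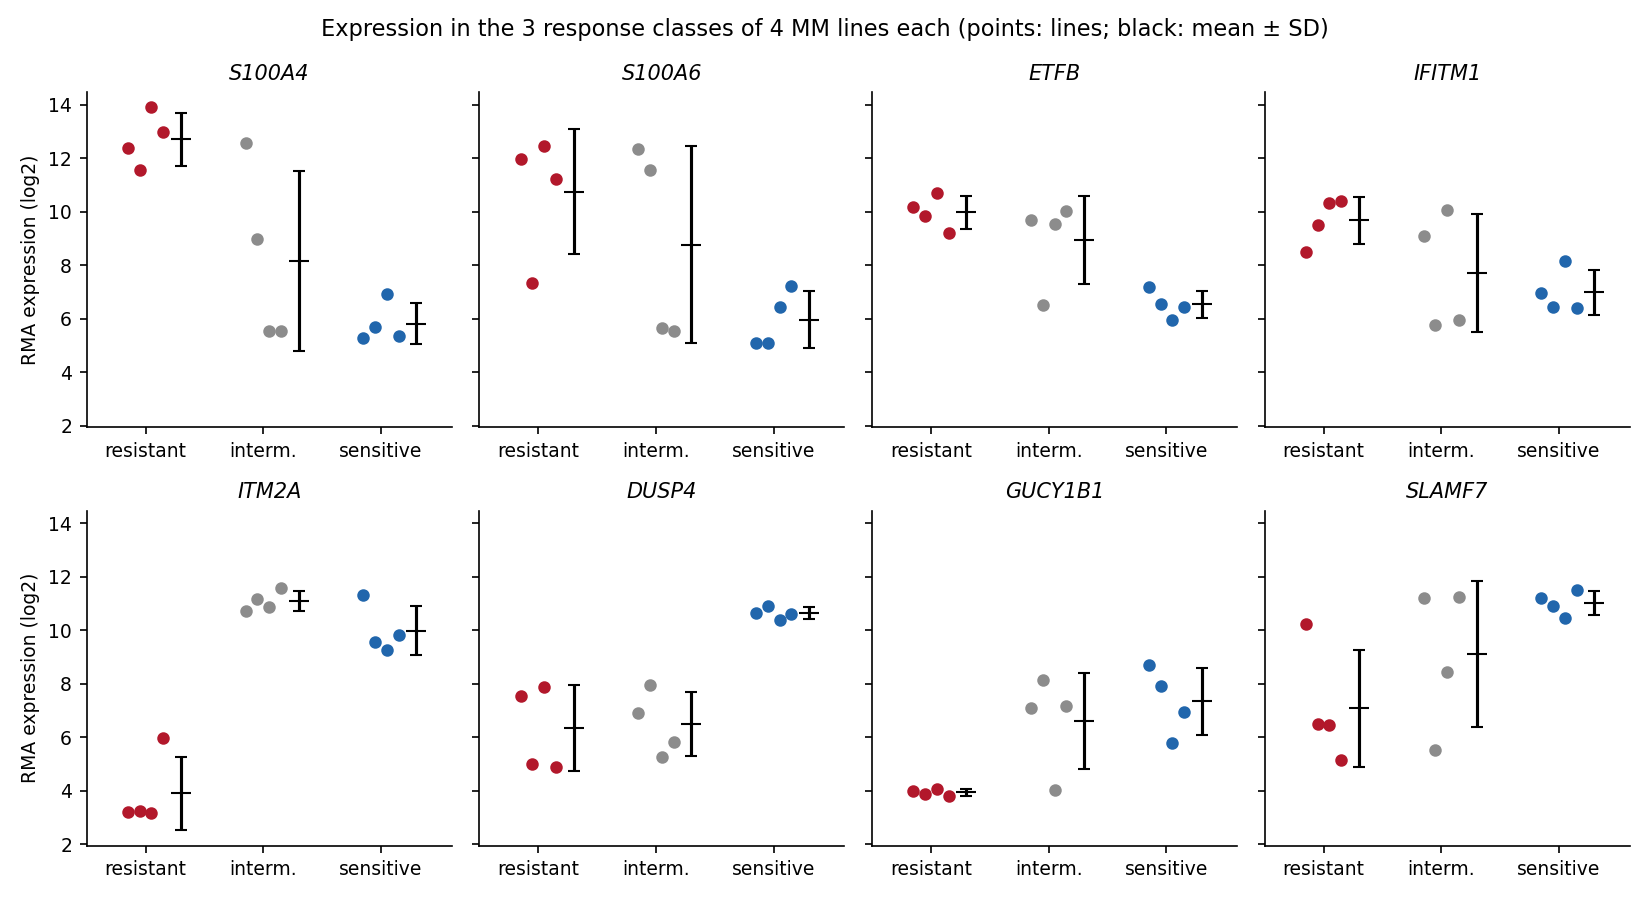
RMA expression on the log2 scale (y axis) of 8 of the leading genes in the resistant, intermediate and sensitive MM lines (x axis), with a point for each line and the mean ± SD in black (n = 4). The resistant and sensitive lines do not overlap for any of the 8 genes. The intermediate lines cover both levels for S100A4, S100A6, ETFB, IFITM1, GUCY1B1 and SLAMF7. They sit with the sensitive lines for ITM2A and with the resistant lines for DUSP4.

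Among genes with lower expression in resistant lines ITM2A, a membrane protein of lymphocyte and chondrocyte differentiation, had the largest difference. It was 5.97 in KMS-12-BM, 3.17 in RPMI-8226, 3.24 in U-266 and 3.21 in AMO-1, and 9.81 in MM1S, 9.25 in MOLP-8, 9.56 in KMM-1 and 11.31 in OPM-2. The other 3 resistant lines were near the lowest values of the array, and all intermediate lines were high, between 10.73 and 11.58. The difference was −6.09 (SE 0.74, limma adjusted p 0.293), and without KMS-12-BM it was −6.78.

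DUSP4, a phosphatase that switches off ERK and is induced by it, was 4.89 in KMS-12-BM, 7.90 in RPMI-8226, 5.01 in U-266 and 7.54 in AMO-1, and within 10.37 to 10.92 in all sensitive lines (difference −4.31, SE 0.73). The intermediate lines lay between 5.27 and 7.97, at the resistant level. All 3 of its probe-sets had the same direction.

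SLAMF7, the plasma cell surface receptor that elotuzumab binds, was 5.15 in KMS-12-BM, 6.45 in RPMI-8226 and 6.5 in U-266 but 10.24 in AMO-1, close to the sensitive lines at 10.46 to 11.52 (difference −3.94, SE 1.0). Without AMO-1 the difference was −5.0. GAS2, a caspase substrate of the cytoskeleton, was 3.86 to 6.46 in 3 resistant lines and 10.21 in U-266, against 10.52 to 12.10 in sensitive lines (difference −4.94, SE 1.30). Both genes therefore held a resistant line near the level of the sensitive class.

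The other lower genes were of mixed function. TSPAN7, a tetraspanin, had a difference of −4.01 (SE 0.84), ROBO1, a Slit receptor, one of −3.82 (SE 0.83), RELN, a secreted guidance protein, one of −3.78 (SE 1.06), and TPBG, the oncofetal antigen 5T4, one of −3.15 (SE 0.61). For the actin binding proteins SHROOM3, RAI14 and PALLD the differences were −3.12 (SE 0.85), −3.10 (SE 0.40) and −2.84 (SE 0.49). RAI14 was flat in the resistant lines, between 3.61 and 3.83, and ranged from 5.60 to 7.60 in the sensitive lines. ANTXR1, an anthrax toxin receptor that binds collagen, had a difference of −3.12 (SE 0.77), with 1 of its 6 probe-sets at 0.02. For TPBG, SHROOM3 and PALLD the smallest difference of any probe-set was −0.23, −0.053 and −0.10. AMPD1, an AMP deaminase, and BTBD3 had differences of −3.79 (SE 0.79) and −3.70 (SE 0.62).

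GUCY1B1 and GUCY1A1 encode the beta and alpha subunits of soluble guanylate cyclase, the receptor for nitric oxide. GUCY1B1 was 3.79 in KMS-12-BM, 4.07 in RPMI-8226, 3.89 in U-266 and 4.00 in AMO-1, and 6.94 in MM1S, 5.79 in MOLP-8, 7.91 in KMM-1 and 8.72 in OPM-2 (difference −3.40, SE 0.57). GUCY1A1, on the probe-set of its largest difference, was 3.09, 5.48, 3.0 and 3.30 in the same resistant lines and 8.52, 8.49, 7.08 and 9.06 in the same sensitive lines (difference −4.57, SE 0.65). RPMI-8226 was the resistant line with the highest value for both subunits. KMS-12-PE was low for both, at 4.02 and 3.18, while the other intermediate lines were between 7.08 and 9.57. Without RPMI-8226 a further probe-set of GUCY1A1 passed at a limma adjusted p of 0.0487, with a difference of −4.73.

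The 2 subunit genes are neighbours on the plus strand of chromosome 4 with no protein-coding gene between them (GRCh38.p14, chr4:155666848-155737059 and chr4:155759021-155807811). The 250 bases before the first RefSeq start of each are shown because both were low in the same lines, at chr4:155666598-155666847 for GUCY1A1, which has 2 starts in the table, and at chr4:155758771-155759020 for GUCY1B1. Capitals again mark CG dinucleotides.
GUCY1A1: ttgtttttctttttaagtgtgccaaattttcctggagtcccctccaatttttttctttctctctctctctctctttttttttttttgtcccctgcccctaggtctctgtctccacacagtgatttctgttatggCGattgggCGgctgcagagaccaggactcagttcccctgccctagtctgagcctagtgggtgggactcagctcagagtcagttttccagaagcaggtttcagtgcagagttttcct
GUCY1B1: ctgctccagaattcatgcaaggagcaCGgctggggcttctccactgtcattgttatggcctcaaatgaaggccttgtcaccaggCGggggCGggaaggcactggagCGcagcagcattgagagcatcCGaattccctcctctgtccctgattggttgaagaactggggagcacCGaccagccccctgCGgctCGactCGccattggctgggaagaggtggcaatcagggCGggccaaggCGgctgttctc
The first held 2 CG dinucleotides, a number that 85.3% of the promoters reach, and the second 11, the median of all promoters. Neither held TATAAA. The pair thus had unlike CG counts.

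**Figure D3:**
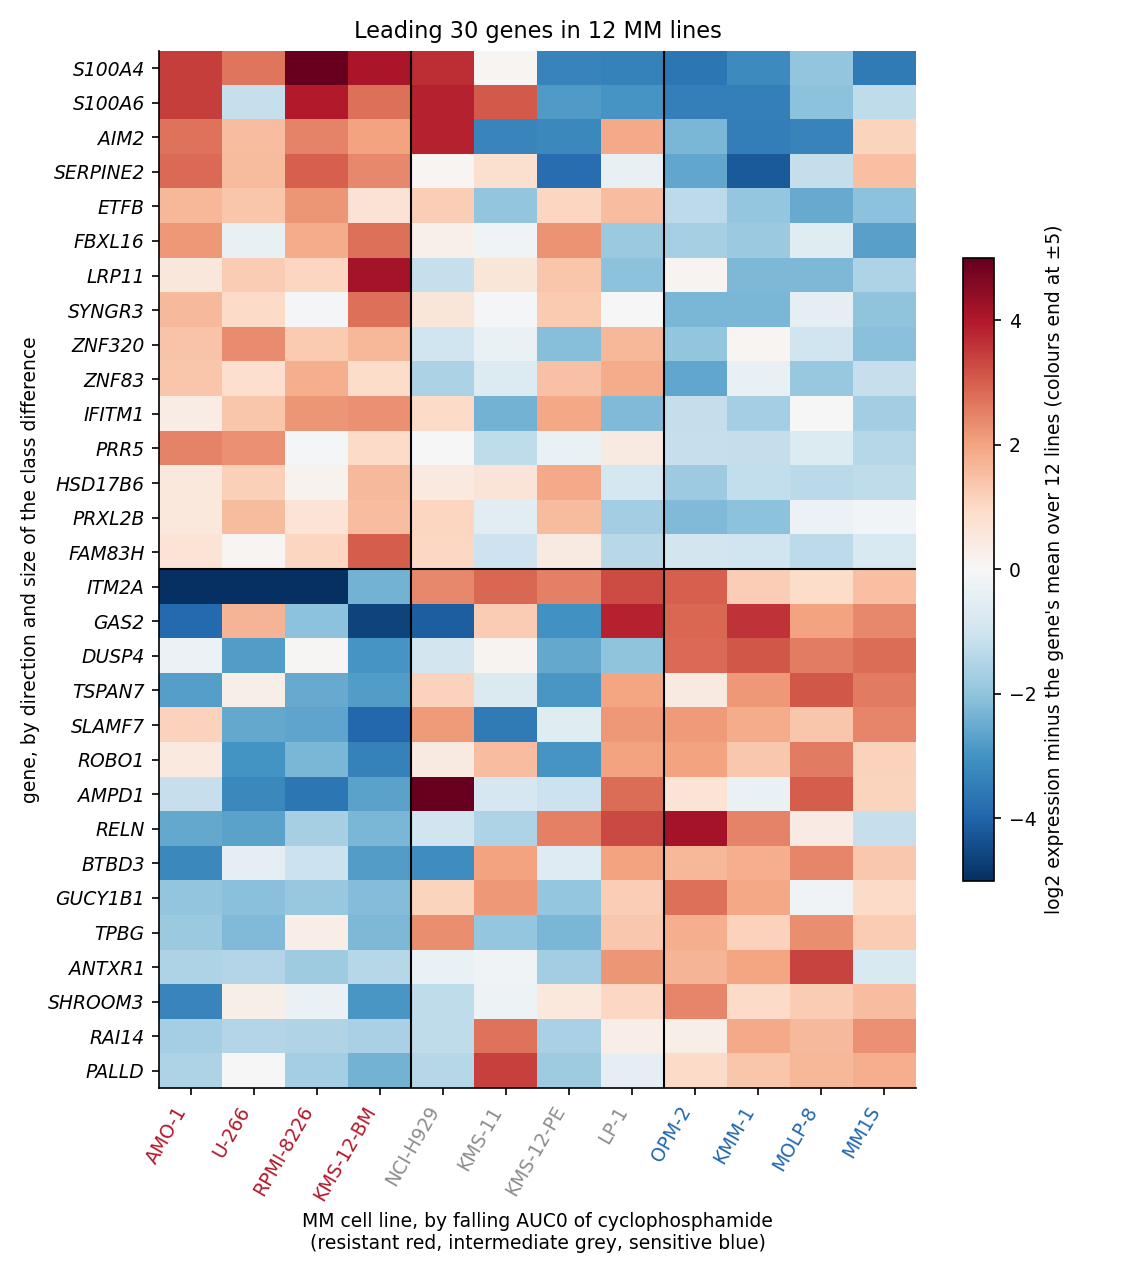
Expression of the 30 leading genes (rows, 15 higher above and 15 lower below the line) in the 12 MM lines (columns, by falling AUC0 of C), as log2 expression minus the mean of the gene over the 12 lines, with colours that end at ±5. The genes were chosen on the 4 lines at the left and the 4 at the right, and the 4 intermediate columns, which took no part in the choice, are a mixture of both patterns.

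The intermediate lines took no part in the choice of these genes. Their mean lay between the class means for all 15 higher genes and for 13 of the 15 lower genes, and for ITM2A and AMPD1 it lay above both. Because the genes were chosen for a wide gap between the classes, such a position would be usual for other lines too. It is a description with no test. NCI-H929 resembled the resistant lines for S100A4 (12.58), S100A6 (12.33) and AIM2 (11.50) and had the highest AMPD1 of all 12 lines (13.94). In a slope on AUC0 over all 12 MM lines none of the 54613 probe-sets passed in limma (0% called, smallest adjusted p 1.0), and 1881 had an unadjusted p under 0.05. For S100A4 the slope was 5.65 per 100 units of AUC0 (SE 1.63).

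KMS-12-BM and KMS-12-PE are sister lines established from bone marrow and pleural effusion of the same patient. The AUC0 of C was 328 (319 to 332) in the former and 309 (286 to 310) in the latter. Their profiles had a correlation of 0.952, and 1186 probe-sets (2.17%) differed by more than 2 on the log2 scale between them. Of the 30 leading genes 12 differed by more than 2, all in the direction of the class difference, which was itself computed with KMS-12-BM. With differences of any size counted, 22 of the 30 went in that direction. KMS-12-PE was nearer to KMS-12-BM than to the sensitive mean for 8 of the 15 higher and 11 of the 15 lower genes. S100A4 differed by 7.43, SERPINE2 by 6.18, S100A6 by 5.58 and AIM2 by 5.22. ITM2A differed by −4.88 and RELN by −4.82. IFITM1 was alike in both, at 10.41 and 10.08, as were ETFB, at 9.20 and 9.55, and DUSP4, at 4.89 and 5.27. This is a single pair of arrays and was not tested.

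The same contrast in DLBCL lines, 4 resistant against 4 sensitive, gave no call in limma (0% called, 2342 probe-sets at an unadjusted p under 0.05). Of the 15 genes higher in resistant MM lines 8 had the same sign in DLBCL, with a median difference of 0.12, and of the 15 lower genes 6, with a median of 0.06. Many of the lower genes were near the lowest values of the array in resistant and sensitive DLBCL lines, such as ANTXR1 (3.19 and 3.14), BTBD3 (3.61 and 3.75) and GUCY1B1 (4.01 and 3.92). Their signs there are not told from background. Others, such as SLAMF7 (7.18 and 5.26), were not as low. The difference between the diseases was tested as an interaction over 16 lines, and 14 probe-sets passed at an adjusted p under 0.05 (0.0256% called, 2477 at an unadjusted p under 0.05). S100A4 was among them: its DLBCL difference was −2.07 (SE 0.96), so that the interaction was 8.96 (SE 1.17, limma adjusted p 0.0209). S100A6 had a DLBCL difference of −1.87 and an interaction that did not pass (limma adjusted p 0.725).

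A further 4 genes that passed were low in resistant MM lines and had DLBCL differences near 0. TMTC1, a protein mannosyltransferase of the endoplasmic reticulum, passed with 3 probe-sets, of which the first had an MM difference of −2.63 (SE 0.26) and a DLBCL difference of 0.11. APBA2, an adaptor that binds the amyloid precursor protein, had an MM difference of −1.65 (SE 0.14, limma adjusted p 0.0867) and a DLBCL difference of −0.08. It was 6.72, 6.88, 6.95 and 6.77 in KMS-12-BM, RPMI-8226, U-266 and AMO-1, and 8.66, 8.72, 8.19 and 8.33 in MM1S, MOLP-8, KMM-1 and OPM-2. RAI14 and GUCY1A1 passed too, with interactions of −3.27 and, for 2 probe-sets, −4.68 and −2.72. The DLBCL means of resistant and sensitive lines were 3.51 and 3.40 for TMTC1, 3.37 and 3.27 for GUCY1A1 and 3.86 and 3.69 for RAI14, near the lowest values of the array, so that for these genes the DLBCL lines had little room for a lower level in resistant lines. APBA2 was at 6.72 and 6.79.

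CREM, a cyclic AMP responsive transcription factor, went opposite ways, with an MM difference of −1.29 (SE 0.17) and a DLBCL difference of 2.44 (SE 0.42) on the first of its 2 probe-sets that passed. PSME1, the alpha subunit of the interferon-inducible proteasome activator, was higher by 0.77 (SE 0.12) in resistant MM lines and had a DLBCL difference of −0.57. For KIF26B, TNFSF8 and a probe-set of no gene symbol the difference was in the DLBCL lines, and their MM differences were −0.14, −0.08 and 0.30. Their means in resistant and sensitive MM lines were low, at 4.70 and 4.84, 3.57 and 3.65, and 4.44 and 4.14. All lay below the median of the values of the 8 MM lines, 5.67, so that these MM differences are not told from background. TMTC1 (2 probe-sets), APBA2, KIF26B and the probe-set of no gene symbol passed however any 1 of the 16 lines was left out. The others were less stable. S100A4 passed in 7 of 8 fits that left out an MM line and in 5 of 8 that left out a DLBCL line, RAI14 in 6 and 1, TNFSF8 in 0 and 2, PSME1 in 0 and 1, and both probe-sets of GUCY1A1 in 2 and 0. The third probe-set of TMTC1 passed in 4 and 0, and those of CREM in 8 and 6 and in 1 and 4.

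**Figure D4:**
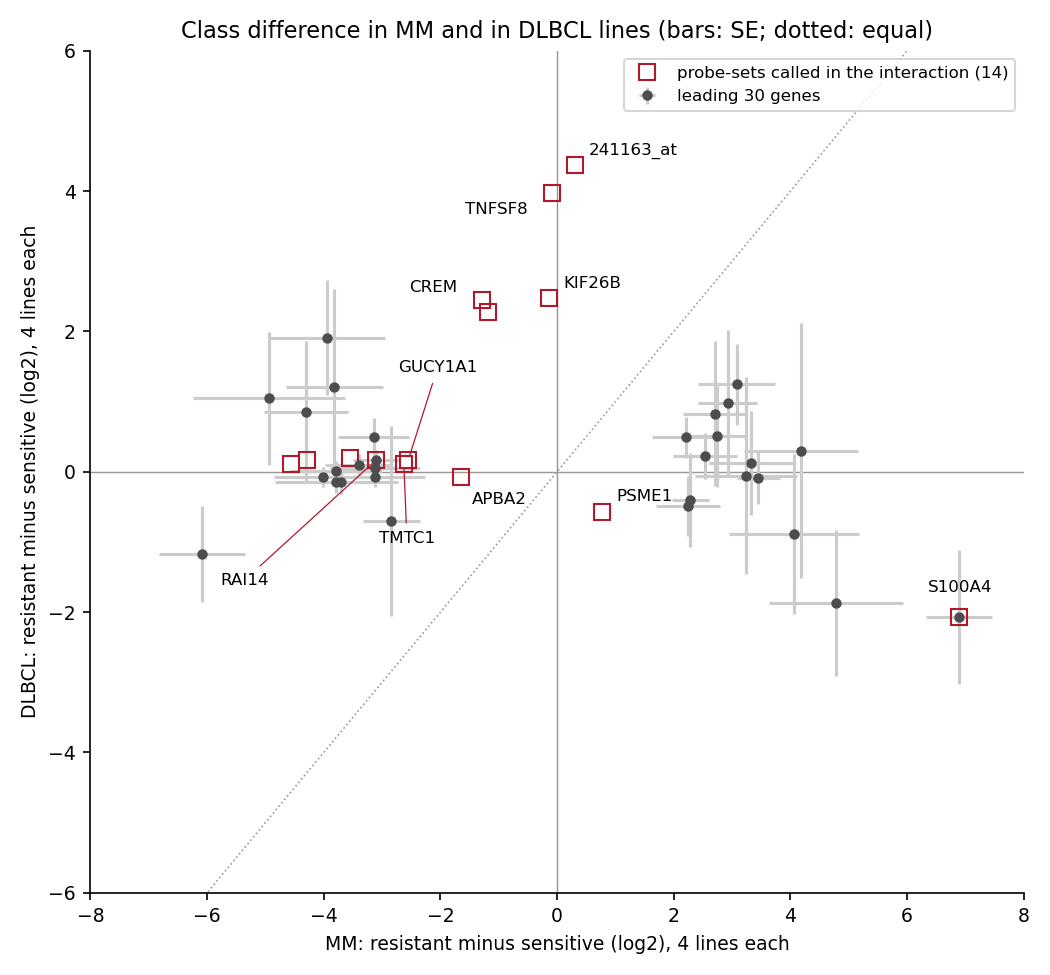
Difference between resistant and sensitive lines in MM (x axis) and in DLBCL (y axis), both on the log2 scale with 4 lines in each class, for the 30 leading genes (grey, bars for the SE) and the 14 probe-sets that passed in the interaction (red squares). The leading genes, which were chosen for the MM difference, lie far from 0 on the x axis and mostly near 0 on the y axis, and S100A4 is at 6.89 and −2.07. Many of the genes lower in resistant MM lines were near the lowest values of the array in the DLBCL lines.

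Genes of processes known in resistance to C, and of plasma cell biology, were described with 38 lists by the median difference of their members, each by 1 probe-set. Over all 19775 genes the median was 0.01, with 52.6% higher in resistant lines, 2.59% higher and 2.04% lower at an unadjusted limma p under 0.05, and classes apart for 1.47% higher and 1.21% lower. No member of a list passed after adjustment. Genes that handle the drug had medians near that of all genes or somewhat above it. For the oxazaphosphorine-activating cytochromes the median was −0.02 (6 genes) and for aldehyde dehydrogenases −0.07, with 12 of 17 lower and none at a p under 0.05. ALDH1A1, the enzyme best known for detoxifying the active metabolite, was between 3.22 and 3.51 in all 8 lines (difference −0.08, SE 0.09), and ALDH3A1 between 5.20 and 5.75. The values of ALDH1A1 were near the lowest of the 8 arrays (2.51), where levels are not told from background. Of the 6 cytochromes 3 had a probe-set that was not dim. ALDH2 had a difference of 0.18 (SE 0.37) in MM and of 3.28 (SE 0.41) in DLBCL, an interaction that did not pass (limma adjusted p 0.248).

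Glutathione genes had a median of 0.26, with 21 of 27 higher, and of 0.11 without RPMI-8226, and 3 were at a p under 0.05. These were GPX1, a glutathione peroxidase, with 10.41 to 11.41 in resistant lines and 10.15, 8.08, 9.73 and 4.58 in MM1S, MOLP-8, KMM-1 and OPM-2 (difference 2.83, SE 1.14), GSTA4, a transferase (1.57, SE 0.54), and GCLM, the modifier subunit of the enzyme that limits glutathione synthesis (1.24, SE 0.48). OPM-2 contributed much of the first difference, and KMS-12-BM was highest for the other two. GSTP1 varied from 7.17 to 12.91 within the resistant lines and from 7.51 to 12.44 within the sensitive lines (difference 1.03, SE 1.43), and GSTM1 had a difference of 0.26. NRF2 and thioredoxin genes had a median of 0.20, and drug efflux transporters one of −0.06, with ABCB1 at −0.26 (SE 0.26).

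DNA repair lists had medians near that of all genes, the highest for nucleotide excision repair. The medians were −0.05 for Fanconi anaemia and homologous recombination (24 genes, none at a p under 0.05), 0.22 for nucleotide excision repair, 0.01 for direct reversal and base excision, and −0.02 for the damage checkpoint. DDB2, the damage recognition factor of nucleotide excision repair, had a difference of 0.72 (SE 0.27). MGMT, which removes alkyl groups from guanine, had one of −0.10 (SE 0.76), and ERCC1 one of 0.25 (SE 0.42). CDK inhibitors and RB1 had a median of −0.05, with CDKN1A at 0.41 (SE 0.85), CDKN2A at 1.60 (SE 1.32) and RB1 at −0.62 (SE 1.02).

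Of the anti-apoptotic BCL2 family (median 0.37), BCL2 was 9.95, 10.70, 9.61 and 10.20 in KMS-12-BM, RPMI-8226, U-266 and AMO-1, and 9.44, 9.76, 8.13 and 9.05 in MM1S, MOLP-8, KMM-1 and OPM-2 (difference 1.02, SE 0.38). The classes overlapped by a small margin. The difference was −0.62 (SE 1.18) for BCL2L1, 0.39 (SE 0.65) for MCL1 and 0.35 (SE 0.27) for BCL2A1. The pro-apoptotic family had a median of −0.03, and in it BIK was at 7.33 to 10.63 in resistant and 6.30 to 7.30 in sensitive lines (difference 2.15, SE 0.64). Inhibitors of apoptosis and death receptors had a median of 0.22.

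The immune lists had the highest medians, and the resistant lines were unlike in the first 2 of them. MHC class II genes had a median of 1.42 with all 12 higher and none at a p under 0.05. Their mean level was 10.61 in U-266 and 10.77 in AMO-1 but 7.64 in RPMI-8226 and 5.86 in KMS-12-BM, and in sensitive lines it ran from 5.28 in MOLP-8 to 9.38 in KMM-1. Without AMO-1 the median was 0.67.

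Interferon-stimulated genes had a median of 1.30, with 38 of 43 higher, 4 of them at a p under 0.05. Their mean level was 9.16 in RPMI-8226 and 8.60 in U-266, above the 5.81 to 6.82 of the sensitive lines, and 6.24 in AMO-1 and 5.66 in KMS-12-BM, within or below it. Without U-266 the median was 0.79 and without KMS-12-BM 1.95. The 4 genes were OAS2, a sensor of double stranded RNA (3.09, SE 0.99), ISG15, a ubiquitin-like modifier (2.78, SE 0.82), IFITM1 and IFITM2 (2.07, SE 0.82). ISG15 was 9.40, 12.45, 11.27 and 8.42 in KMS-12-BM, RPMI-8226, U-266 and AMO-1, and 7.27 to 7.97 in sensitive lines.

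MHC class I presentation had a median of 0.54, with 13 of 15 higher and the immunoproteasome subunits PSMB9 (1.27, SE 0.45) and PSMB8 (0.92, SE 0.35) at a p under 0.05, and a median of 0.24 without RPMI-8226. NF-κB targets and regulators had one of 0.63, with 22 of 26 higher, and of 0.35 without OPM-2. Among these NFKBIA, the inhibitor induced by NF-κB, had a difference of 1.30 (SE 0.50) and MAP3K14, the kinase of the alternative pathway, one of 1.10 (SE 0.38). The median of the NF-κB subunits was 0.28 and turned to −0.06 without OPM-2, with NFKB2 at 1.20 (SE 0.69) and REL at 1.10 (SE 1.03). The receptor CD40 was at 0.90 (SE 0.64). IL6 and JAK-STAT3 genes had a median of 0.24 and chemokine and S1P receptors one of 0.30.

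Genes of ERK feedback had a median of −0.52, which became 0.04 without KMS-12-BM, and 8 of 15 were lower. DUSP4 and PHLDA1, a pleckstrin homology protein induced by growth signals (difference −2.36, SE 0.61), were at a p under 0.05. PHLDA1 was 4.03 to 5.68 in resistant and 5.60 to 8.41 in sensitive lines, so that the classes overlapped at RPMI-8226 and OPM-2, and 10.01 in KMS-12-PE.

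Plasma cell markers were lower in resistant lines for 12 of 18 genes, with a median of −0.71 that ranged from −1.14 (without AMO-1) to −0.19 (without KMS-12-BM). XBP1, the transcription factor of the secretory programme, was 10.85 in KMS-12-BM, 11.47 in RPMI-8226, 11.10 in U-266 and 9.58 in AMO-1, and 12.45, 12.85, 12.74 and 12.32 in MM1S, MOLP-8, KMM-1 and OPM-2 (difference −1.84, SE 0.39). PRDM1, the repressor that closes the B-cell programme, was 9.16 to 10.50 in resistant and 10.60 to 11.85 in sensitive lines (difference −1.38, SE 0.37). For both genes only 1 probe-set, the one given, separated the classes. The other probe-set of XBP1 had a difference of −0.20, and the smallest of the 3 of PRDM1 was −0.07. The third gene at a p under 0.05 was SLAMF7, and its probe-set in the list gave −4.28.

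Of single plasma cell markers, SDC1 (CD138) was 6.49 in KMS-12-BM and 11.06 to 13.78 in the other 7 lines (difference −1.14, SE 1.46, and 0.39 without KMS-12-BM). IRF4 had a difference of −0.82 (SE 0.48), and TNFRSF17 (BCMA) one of 0.07 (SE 0.89). Mature B-cell markers had a median of 0.51, with 15 of 18 higher and SPIB at 1.48 (SE 0.57), and one of 0.17 without RPMI-8226. PAX5 was 7.15 in KMS-12-BM and 3.78 to 4.54 in the other 7 lines. KMS-12-BM was thus the line with the lowest SDC1 and the highest PAX5, but not every marker went this way. Its SPIB (6.09) was the lowest and its IRF4 (9.91) the highest of the resistant lines. Its mean level of mature B-cell markers, 5.59, lay below those of RPMI-8226 (6.14) and AMO-1 (5.80). That of plasma cell markers, 8.03, was the lowest of the lines in both classes. Immunoglobulin genes had a median of −0.13, and the probe-set of IGKC was 11.39 to 14.42 in RPMI-8226, U-266 and AMO-1 and 7.09 to 7.73 in the other 5 lines. The study's list of lines describes lambda light chains for RPMI-8226 and U-266 and kappa for AMO-1. Whether the probe-set measures kappa transcripts alone was not tested. The unfolded protein response, of which XBP1 is a member, had a median of −0.05 and proteasome subunits one of 0.08.

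The translocation partners and cyclins D had a median of −1.05, with 12 of 14 lower and none at a p under 0.05, and it was −0.45 without MM1S. The genes that are high in single lines cut across the classes. CCND1 was 11.82 in KMS-12-BM and 11.71 in U-266, and 11.95 in the sensitive MOLP-8. MAF was 12.10 in RPMI-8226 and 12.03 in the sensitive MM1S. It was also 9.13 in KMM-1, 9.14 in OPM-2 and 5.34 in MOLP-8, against 3.19 to 3.44 in the other resistant lines (difference −3.39, SE 2.30). Among the 8 lines FGFR3 was 13.75 and NSD2 10.91 in OPM-2, against 4.27 to 4.82 and 6.02 to 7.91 in the others, and CCND3 was 12.94 in KMM-1 against 8.07 to 9.10. CCND2 was 3.62 in KMS-12-BM and 4.55 in MOLP-8, and 12.25 to 13.31 in the other 6. MYC was 5.53 in U-266 and 12.69 to 13.82 in the other 7. None of the 14 genes had classes that did not overlap.

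Proliferation genes had a median of −0.17, with 27 of 37 lower. CDC20, the activator of the anaphase promoting complex, was 9.19 to 9.76 in resistant and 10.02 to 10.34 in sensitive lines (difference −0.69, SE 0.17), and AURKB had a difference of −0.86 (SE 0.35). CCNE2, cyclin E2 of the entry into S phase, was 7.27 to 9.21 in resistant and 5.97 to 7.01 in sensitive lines (difference 2.04, SE 0.47). MKI67 was lowest in RPMI-8226, at 6.34 against 9.21 to 9.56 in the other resistant lines, and its difference was −0.17 (SE 0.84). TOP2A had one of −0.39 (SE 0.39). Without RPMI-8226 the list median was 0.12.

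In the other lists ALDOC, a glycolytic aldolase, was at 9.82 to 11.26 in resistant and 7.59 to 9.03 in sensitive lines (difference 1.84, SE 0.41), within a glycolysis and hypoxia list of median 0.03. CRBN, the target of thalidomide analogues, had a difference of 0.50 (SE 0.15) with classes apart, in a list of median −0.15. The medians were −0.14 for integrins and adhesion molecules, in which ICAM3 was at 2.58 (SE 0.82), and −0.05 for cancer-testis antigens.

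Markers of other cell types did not separate the classes as lists. The medians were 0.10 for T cells, 0.12 for NK and cytotoxic cells, 0.08 for myeloid cells, −0.10 for stromal and endothelial cells and 0.01 for erythroid cells and megakaryocytes. Their mean level was 5.37 to 6.23 in resistant and 5.26 to 6.14 in sensitive lines for T-cell markers, 5.10 to 5.22 and 4.94 to 5.13 for NK markers, 4.40 to 4.97 and 4.37 to 5.10 for myeloid markers, 4.78 to 5.32 and 4.90 to 5.60 for stromal markers, and 5.49 to 5.69 and 5.42 to 6.09 for erythroid markers. Of single markers CD8A, with a difference of 0.70, and the stromal THY1 (−0.25) and LUM (−0.17) had classes that did not overlap. TRBC1, a T-cell receptor constant segment, had the largest difference of the T-cell list, 3.97 (SE 1.58), with overlapping classes, at 12.12, 5.50, 12.88 and 10.21 in KMS-12-BM, RPMI-8226, U-266 and AMO-1, and 5.35 to 8.12 in sensitive lines, whereas CD3D, CD3E and CD3G differed by −0.17, 0.10 and 0.13.

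**Figure D5:**
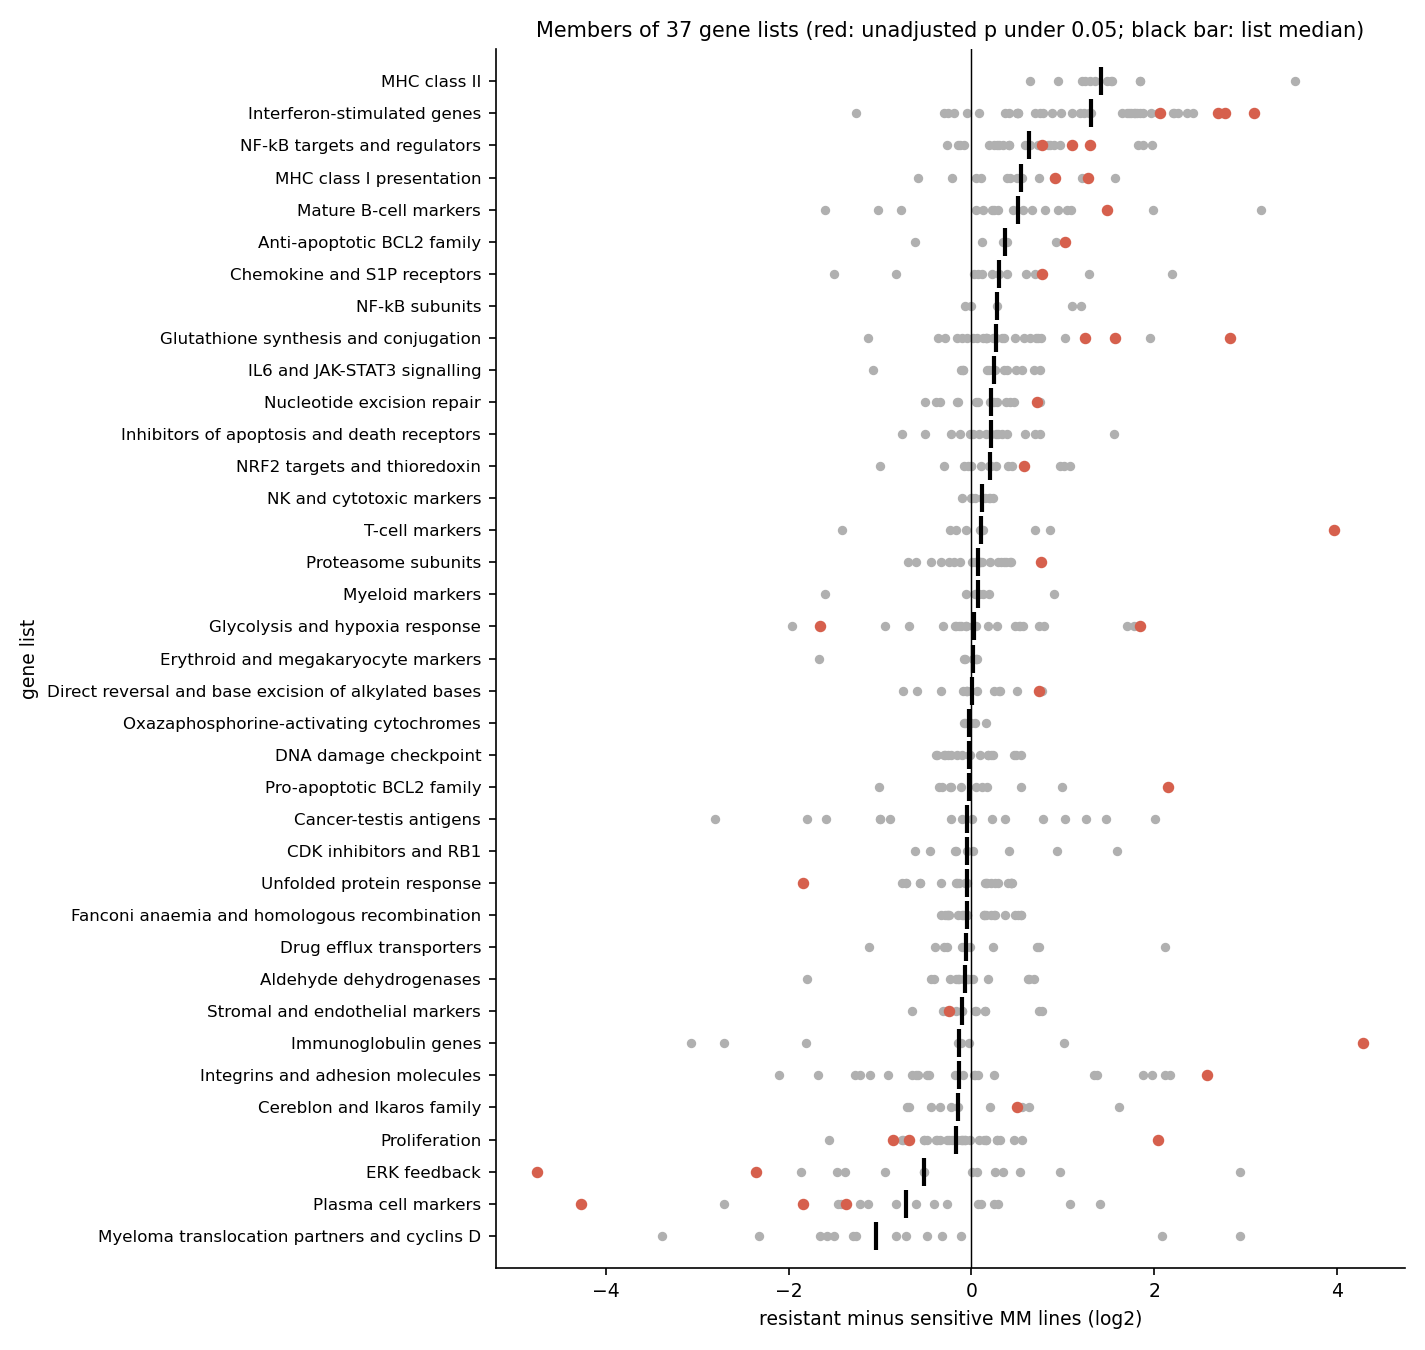
Difference between resistant and sensitive MM lines on the log2 scale (x axis) for each member of 37 of the 38 gene lists (y axis, by list median), with members at an unadjusted limma p under 0.05 in red, the others in grey and the list median as a black bar. The immune lists lie at the top, MHC class II at 1.42 and interferon-stimulated genes at 1.30, the translocation partners at the bottom at −1.05, and the lists of drug handling and DNA repair lie near 0.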

How the data were processed

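Untreated lines were profiled on HG-U133 Plus 2.0 arrays, and the deposited values are the authors' log2 expression after RMA with affy (R 3.0.1 per the labels). Which arrays were normalised together is not given in the sources used here, nor is any batch or scan date. RMA brings arrays to 1 distribution, so a shift of all genes in a line cannot be seen, and precision is limited by how few arrays there are. AUC0, its interval and the class of C came from the sample labels. Of 54675 probe-sets 62 controls were left out. Of the rest 41091 have 1 gene symbol, 1801 several and 11721 none, by the platform annotation, checked against RefSeq by Entrez ID (41037 matched). Only probe-sets of 1 symbol were named.

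Differences were fitted with limma 3.58.1 (lmFit and eBayes) in R 4.3.3 for 4 resistant against 4 sensitive lines, as a slope per 100 units of AUC0 over 12 MM lines, and as an interaction of disease and class over 16 lines, with Benjamini-Hochberg adjustment over all 54613 probe-sets and a threshold of 0.05. The class and interaction fits, but not the slope, were also run on simulated independent normal values with planted differences. Such values hold no correlation between genes and no outlying lines, so they do not show how the fits behave with these. Values after ± are SDs. Named genes were (a) any that passed, (b) the 15 a direction of the largest difference among probe-sets of 1 symbol with an unadjusted p under 0.01 and classes that do not overlap, a gene by its probe-set of smallest p, (c) list members with an unadjusted p under 0.01, and (d) fixed genes of drug metabolism, apoptosis, cell cycle and myeloma. Genes of the interaction and those said to be seen first were named after their values. In 38 lists of 650 genes, 52 without a probe-set of their own, 1 probe-set stood for each gene, the one that varied most (SD) among 12 MM lines. The members and lists were chosen with earlier results of these data known. Some items, 1 list among them, are not reported here. No set test was run. AUC0 of H and O was compared with an exact permutation test. Figures were drawn with matplotlib 3.10.9 in Python 3.11.15 (numpy 2.4.6, pandas 2.3.3). Promoter sequences are those of RefSeq (GRCh38.p14).

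The alternatives were other probe-sets of a gene, dim probe-sets left out (mean not above the median of the 8 lines), arrays centred on their medians, other priors, a fit with the intermediate class, serum percent or AUC0 of H as a covariate, values centred and scaled to the DLBCL lines as in the study, ranks of AUC0 and each line left out.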

Additional observations from a re-analysis of the deposited data

Results flagged for a closer look

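In some genes 1 line stood apart from the other 3 of its class by Dixon's test, which chance passes in about 1 in 20 groups, and 176 groups were looked at. RPMI-8226 was the line most often concerned among the resistant lines. Its values were 12.10 for MAF (others 3.19 to 3.44), 10.43 for APP (3.04 to 3.61), 11.26 for ALDOC (9.82 to 10.06), 6.53 for TPBG (3.93 to 4.32), 6.34 for MKI67 (9.21 to 9.56), 3.80 for TMTC1 (3.29 to 3.31), and 5.48 and 6.22 for 2 probe-sets of GUCY1A1 (3.0 to 3.30 and 3.63 to 3.87). U-266 stood apart at 5.53 for MYC (others 13.05 to 13.82), 7.42 for TSPAN7 (4.33 to 4.58) and 12.15 for PSME1 (11.86 to 11.88). KMS-12-BM did so at 5.97 for ITM2A (others 3.17 to 3.24) and 3.62 for CCND2 (12.25 to 12.53), and AMO-1 at 7.55 for MDM2 (others 4.16 to 4.40).

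Among the sensitive lines MOLP-8 stood apart at 11.95 for CCND1 (others 3.86 to 4.41) and 4.55 for CCND2 (12.68 to 13.31), OPM-2 at 13.75 for FGFR3 (others 4.29 to 4.82) and 10.91 for NSD2 (7.29 to 7.91), KMM-1 at 12.94 for CCND3 (others 8.37 to 9.04) and MM1S at 6.81 for a probe-set of CREM (7.72 to 7.79).

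The class difference in MM differed from that in DLBCL in the limma interaction for 14 probe-sets. MM minus DLBCL was 8.96 for S100A4, 1.34 for PSME1, −3.27 for RAI14, −1.57 for APBA2, −3.74 and −3.47 for CREM, −2.74, −3.75 and −4.46 for TMTC1, −4.68 and −2.72 for GUCY1A1, −4.05 for TNFSF8, −2.62 for KIF26B and −4.07 for a probe-set of no gene symbol. PSME1 (limma adjusted p 0.0478) passed in none of the 8 fits that left out an MM line and in 1 of 8 that left out a DLBCL line.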

How the results depend on the processing

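No probe-set passed at an adjusted p under 0.05 with 1 probe-set a gene, arrays centred on their medians, either other prior, 12 lines in 3 classes, serum percent or AUC0 of H as a covariate, or values scaled to the DLBCL lines, while 1 passed (S100A4) with dim probe-sets left out. With 1 line left out 0 to 2 passed. At an unadjusted p under 0.05 the 2253 probe-sets became 1366 with 1 probe-set a gene and 1256 with dim probe-sets left out, where fewer were tested, and 1752 to 2641 with 1 line left out. The slope gave 0 calls under every alternative. The 14 probe-sets of the interaction became 3 with dim probe-sets left out, all among the 14, and 14 with a trend, 13 of them shared. With 1 line left out they were 5 (without FARAGE, a leave-out of DLBCL lines chosen after seeing the data) to 19 (without RPMI-8226 or MOLP-8, 11 and 9 of them shared), and 6 without KMS-12-BM. The difference in AUC0 ranged from −3.83 to 35.8 for H and from −18.4 to 1.25 for O with 1 line left out.

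Other probe-sets of a gene turned the sign for ANTXR1 (0.022), ERCC1 (−0.23), BCL2 (−0.0028), MCL1 (−0.037 and −0.086), NFKB2 (−0.13), MDM2 (0.24, 0.30, 0.13 and 0.19), CDKN2A (−0.12) and MAF (0.050), and the cause was not tested. With 1 line left out the difference took both signs for some named genes, none of which had passed between the MM classes. It ranged for ALDH2 from −0.14 to 0.39, ALDH3A1 from −0.17 to 0.019, GSTM1 from −0.032 to 0.65, MGMT from −0.61 to 0.42, ERCC1 from −0.057 to 0.61, BCL2L1 from −1.35 to 0.026, MCL1 from −0.12 to 0.85, CDKN1A from −0.0099 to 1.10, RB1 from −1.26 to 0.18, CCND2 from −2.84 to 1.47, MYC from −2.46 to 0.31, SDC1 from −2.03 to 0.39, TNFRSF17 from −0.84 to 0.51, MKI67 from −0.61 to 0.59 and TNFSF8 from −0.17 to 0.030. Centring the arrays turned none of the named genes. Of the 38 lists 18 kept the sign of their median whichever of the 8 lines was left out, and for the other 20 (ERK feedback with the largest median, −0.52) it turned in at least 1 leave-out. Further medians that moved by over 1.5 times included those of nucleotide excision repair (0.047 without U-266), inhibitors of apoptosis and death receptors (0.059 without MOLP-8), NRF2 genes (−0.00092 without MOLP-8), chemokine and S1P receptors (0.11 without RPMI-8226) and IL6 and JAK-STAT3 genes (0.14 without MOLP-8).

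No paired analysis was possible because the replicate numbers only name lines in accession order and pair no line across classes. With 4 arrays a class, and no detection calls, small differences and those among dim probe-sets were not resolved.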

Other observations

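APP, the amyloid precursor protein, which was looked at after its values had been seen, was 3.61 in KMS-12-BM, 3.21 in U-266, 3.04 in AMO-1 and 3.16 in KMS-12-PE, and 9.11 to 10.90 in the other 8 MM lines, RPMI-8226 among them. The difference between the classes was −4.82 (SE 1.63), and it was −6.60 without RPMI-8226. The same 4 lines were low for MAF, a transcription factor of myeloma translocations, at 3.19 to 3.44, while MOLP-8 was at 5.34 and the other 7 lines at 9.13 to 12.10. They were also the 4 lowest of the 12 lines for GUCY1A1 on its probe-set of the largest difference, at 3.0 to 3.30, followed by RPMI-8226 at 5.48. These are values of 12 arrays, and no relation between the genes was tested.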
